A study of Mus musculus with 4 samples.

Results

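The genes described here are 10 genes that make, use or shuttle the electrons of nicotinamide adenine dinucleotide (NAD): the sirtuins Sirt1, Sirt2, Sirt3, Sirt5, Sirt6 and Sirt7, the salvage enzymes Nampt and Nmrk2, the NAD-cleaving enzyme Cd38 and the transhydrogenase Nnt. They were chosen by name and make up 10 of the 32285 genes in the deposited matrices. Their levels are sums of unique molecular identifiers (UMIs) over all barcodes of a library, given as UMIs per 1000000 UMIs of that library (CPM). The 4 libraries, 1 for each condition, were made on the 10× Chromium system from left ventricle of male wild-type C57BL/6J mice. The mice were young or aged and had sham conditions or ischemia and reperfusion (I/R). Where 4 values are listed without names, they stand for young sham, then young I/R, then aged sham, then aged I/R. Young mice were 3 to 5 months old and aged mice were 24 to 26 months old. Mice of both I/R groups had 45 min of ischemia in surgery on the left anterior descending artery and 24 h of reperfusion. The labels call both sham samples healthy and unaltered and give nuclear RNA as the molecule, where the paper describes sham operations and single cells. How many mice went into each library is stated neither by the labels nor by the paper.

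NAD carries electrons from fuel oxidation to the respiratory chain and is also consumed as a substrate. Sirtuins remove acyl groups from lysines and release nicotinamide from NAD as they do so. Nampt recycles that nicotinamide into nicotinamide mononucleotide, and the muscle-enriched kinase Nmrk2 makes the same product from nicotinamide riboside. Cd38 is an ectoenzyme that hydrolyses NAD, and Nnt is an inner mitochondrial membrane protein that passes electrons from NADH to NADP+. C57BL/6J mice carry a deletion of several exons of Nnt, and counts summed over a gene check nothing about that deletion.

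The sequences just upstream of Nmrk2 and Sirt5 are shown because Nmrk2 gave the highest I/R ratio among the 10 genes and Sirt5 was among the sirtuins with lower levels after I/R in young mice. Each is the window from 250 to 51 bases before the RefSeq start (assembly GRCm38.p6), 5′ to 3′ on the strand of the gene, and 9 of the 10 genes had such an entry. Capitals mark the motifs that were searched and found.
Nmrk2, minus strand, chr10:81202088-81202287: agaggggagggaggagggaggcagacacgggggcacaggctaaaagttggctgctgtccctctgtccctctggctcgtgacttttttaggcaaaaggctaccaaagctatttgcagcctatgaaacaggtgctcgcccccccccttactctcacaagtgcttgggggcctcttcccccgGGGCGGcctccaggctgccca
Sirt5, plus strand, chr13:43365285-43365484: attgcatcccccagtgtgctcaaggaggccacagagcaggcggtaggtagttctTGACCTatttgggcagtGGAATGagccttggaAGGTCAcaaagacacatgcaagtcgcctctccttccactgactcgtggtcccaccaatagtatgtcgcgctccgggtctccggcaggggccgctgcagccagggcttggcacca
The search covered 6 motifs on both strands: the E-box CACGTG, the AP-1 site TGACTCA, the cyclic AMP response element TGACGTCA, the nuclear receptor half-site AGGTCA, the TEAD site CATTCC and the GC box GGGCGG. None of these letters overlap between motifs in the windows shown. Nmrk2 held 1 GC box, which begins 71 bases before the start, and 24.6% of the 32851 mouse windows of the same length held one. Sirt5 held a half-site on each strand at 164 and 196 bases before the start and a TEAD site at 179 bases, motifs found in 11.4% and 10.7% of all windows. A match describes the letters and is not evidence of binding.

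The libraries held between 91124 and 102883 barcodes and between 25836175 (young sham) and 66767829 (aged I/R) UMIs, with a median of 244 to 675 UMIs per barcode. At least 200 genes were detected in 28.4%, 55.2%, 67.9% and 98.8% of the barcodes. No barcode held over 3 UMIs of any of the 10 genes, and between 2366 and 2843 barcode sequences were shared by a pair of libraries. The 18 cardiomyocyte markers of the labelled tissue summed to between 95013 and 118492 CPM with none at 0 in any library. The nuclear RNA Malat1 took 7.34%, 2.22%, 2.88% and 4.33% of UMIs. In each comparison the ratios of all genes were not centred on 0: among genes for which the libraries compared held 100 UMIs or more, the median log2 CPM ratio was -0.44 for young I/R over young sham, 0.09 for aged I/R over aged sham, -0.14 for aged over young sham and 0.43 for aged over young I/R. Scaling by the median of gene-wise ratios instead of the total adds 0.49, -0.10, 0.14 and -0.44 to these log2 ratios, and is named gene-wise scaling. With 1 library per condition there is no replicate check and no test. The 95% intervals cover counting error only.

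Of the salvage enzymes, Nmrk2 was higher after I/R at both ages, and by far more in young mice. Nmrk2 (ENSMUSG00000004939, chr10:81198170-81202051, minus strand, mm10) had 458 UMIs in young sham and 5286 after I/R in young mice, and 723 and 2316 UMIs in the corresponding aged libraries. These are 17.7 CPM (16.1 to 19.4), 133 CPM (130 to 137), 17.5 CPM (16.2 to 18.8) and 34.7 CPM (33.3 to 36.1). The sham libraries had levels within each other's intervals, and both I/R libraries lay above them. Over barcodes with at least 200 genes, however, aged sham was lower than young sham, at a log2 ratio of -0.63 (-0.83 to -0.43). The log2 CPM ratio was 2.91 (2.77 to 3.05) for young I/R over young sham, a 7.52-fold higher level, and 0.99 (0.87 to 1.11) for aged I/R over aged sham, a 1.98-fold higher level. Over barcodes with at least 200 genes the young ratio was 2.32. In young mice 48 of 12465 genes had a higher ratio than Nmrk2, and in aged mice 508 of 13722 did. Aged I/R over young I/R stood at -1.94 (-2.01 to -1.87), with 18 of 13434 genes at a lower ratio. In sums over tissue, fewer cells of a type and less RNA per cell cannot be told apart.

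Nmrk2 also stood out in young I/R against other salvage genes of the same library, a ratio that no scaling touches. Its paralog Nmrk1, the kinase found in most tissues, had 234, 161, 277 and 453 UMIs. Nmrk2 UMIs per Nmrk1 UMI were thus 1.96 (1.67 to 2.30), 32.8 (28.1 to 38.6), 2.61 (2.27 to 3.01) and 5.11 (4.62 to 5.67). Nmrk2 UMIs per Nampt UMI were 0.154, 0.958, 0.130 and 0.250 in the same order. Both ratios put young I/R highest, aged I/R second and the sham libraries lowest. The annotated antisense gene Atcayos spans all of Nmrk2, and whether the counting used strand is not stated, so reads of the pair may be mixed. Atcayos had 307, 82.9, 144 and 198 CPM, lowest in the library where Nmrk2 was highest. Of other cell types, the 9 neutrophil markers summed to 53.5 (with 1 marker at 0), 127, 52.1 and 123 CPM. The 4 atrial markers summed to 453, 1285, 926 and 457 CPM with none at 0. Both lists were thus higher after I/R in young mice, and their part in the level of Nmrk2 was not tested.

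Among the genes with the pattern nearest to Nmrk2 over the 4 libraries, by Euclidean distance of mean-centred log2 CPM among 9908 genes with at least 1000 UMIs, were Mt1 and Hbegf. Mt1, a metal-binding metallothionein, had 235, 2090, 227 and 458 CPM (distance 0.22). Hbegf, a growth factor of the EGF family, had 18.9, 118, 17.7 and 30.7 CPM (distance 0.24). Both were highest in young I/R and next highest in aged I/R, over 4 libraries that share no replicate.

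**Figure D1:**
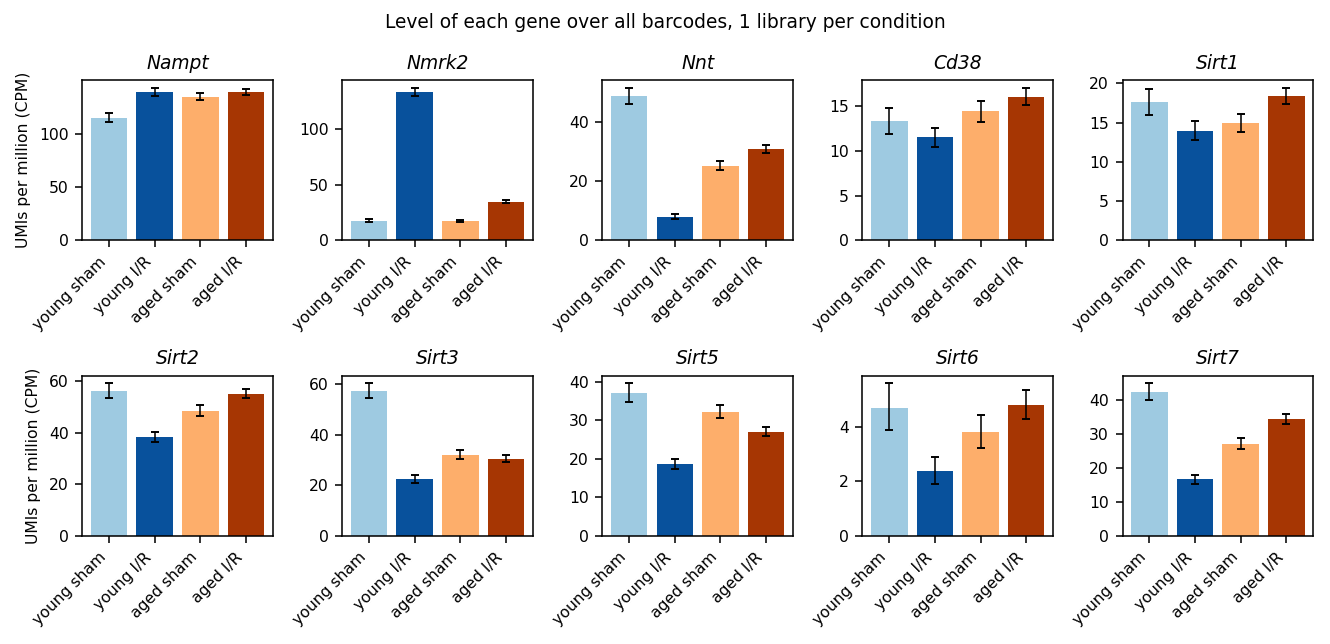
Level of each of the 10 genes in CPM (vertical axis, from 0, with its own range in each panel) in the 4 libraries, with bars for levels and lines for 95% Poisson intervals of the counts. Nmrk2 stands at 133 CPM in young I/R against 17.7 in young sham, Nnt has its lowest bar of 8.09 CPM in young I/R, and Nampt lies between 115 and 139 CPM.

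Nampt, the rate-limiting enzyme of nicotinamide recycling, differed little between the libraries. Nampt (ENSMUSG00000020572, chr12:32819545-32853349, plus strand) had 2972, 5519, 5565 and 9269 UMIs, or 115 (111 to 119), 139 (135 to 143), 135 (131 to 138) and 139 (136 to 142) CPM. Young sham was the lowest, and the intervals of the other libraries overlapped. The log2 CPM ratio was 0.27 (0.21 to 0.34) for I/R in young mice and 0.04 (-0.00 to 0.09) in aged mice. Because most genes had lower CPM in young I/R, Nampt at 0.27 ranked above 10968 of 12465 genes, and under gene-wise scaling it came to 0.76, past 1.5-fold. In aged mice gene-wise scaling turned its sign, to -0.06. The nearest patterns were those of Sik3, a kinase of the salt-inducible family (45.7, 56.2, 54.4 and 56.0 CPM), Mydgf (18.5, 22.8, 22.3 and 22.5 CPM) and Rtraf (76.4, 91.1, 87.1 and 89.5 CPM), at distances of 0.019, 0.031 and 0.033.

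Nnt was lower in young I/R than in any other library. The counted Nnt model (ENSMUSG00000025453, chr13:119335448-119408997, minus strand) had 1260 UMIs in young sham and 321 after I/R in young mice, and 1045 and 2053 UMIs in the aged libraries. The levels were 48.8 (46.1 to 51.5), 8.09 (7.23 to 9.03), 25.3 (23.8 to 26.9) and 30.7 (29.4 to 32.1) CPM, with no overlap of intervals between libraries. Young I/R over young sham stood at a log2 CPM ratio of -2.59 (-2.77 to -2.41), a 6.03-fold lower level, and 114 of 12465 genes had a lower ratio. Aged I/R over aged sham stood at 0.28 (0.18 to 0.39). Between ages, Nnt was 1.93-fold lower in aged than in young sham (log2 -0.95, -1.07 to -0.83) and 3.80-fold higher in aged than in young I/R (log2 1.93, 1.76 to 2.10).

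Counts of Nnt are uncertain because a second Nnt model (ENSMUSG00000116207) had 0 UMIs in all 4 libraries and all of its 3339 exonic bases lie in exons of the counted one. Of the last 500 exonic bases of the counted model, 420 are shared, and Cell Ranger leaves out reads that fit more than 1 gene. The paper does not state which end of a transcript the kit reads, and where the Nnt reads lay was not examined. The annotated overlap is the same in every library, and whether the same share of Nnt reads was left out in each was not tested. Within libraries, Nnt UMIs per UMI of Nadk2, the mitochondrial NAD kinase, were 1.25 (1.15 to 1.35), 0.223 (0.197 to 0.252), 0.698 (0.644 to 0.756) and 0.707 (0.668 to 0.748). This ratio, which no scaling touches, was also lowest in young I/R and highest in young sham. Among the genes nearest to Nnt in pattern, a measure added after the data had been seen, were 5930430L01Rik (42.3, 6.45, 22.6 and 26.0 CPM) and the clock gene Per3 (60.8, 9.81, 33.5 and 35.4 CPM). Malat1 followed the same order of libraries as Nnt, with log2 ratios of -1.72 and 0.59 for I/R in young and aged mice and -1.35 for aged over young sham. The 5 erythroid markers summed to 2567, 1957, 1691 and 1025 CPM, an order that differs from that of Nnt. The part of either in the levels of Nnt was not tested.

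Cd38 was detected at low and similar levels. Cd38 (ENSMUSG00000029084, chr5:43868553-43912375, plus strand) had 344, 457, 597 and 1073 UMIs, or 13.3 (11.9 to 14.8), 11.5 (10.5 to 12.6), 14.4 (13.3 to 15.6) and 16.1 (15.1 to 17.1) CPM. Neighbours in the order of level, from young I/R to aged I/R, had overlapping intervals. The log2 CPM ratio for young I/R over young sham was -0.21 (-0.41 to -0.00) by total UMIs and 0.28 (0.07 to 0.48) by gene-wise scaling, so its direction rests on the scaling. For aged I/R over aged sham it was 0.15 (0.01 to 0.30). The macrophage markers, a cell type known to carry CD38, summed to 678, 623, 987 and 891 CPM over 21 genes with none at 0, and their part in the level of Cd38 was not tested. The sense intronic gene Gm16014 lies within Cd38 and had between 27 and 165 UMIs.

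After I/R in young mice 4 of the 6 sirtuins (Sirt3, Sirt5, Sirt6 and Sirt7) were lower by more than 1.5-fold in CPM, where 41.9% of all genes were, and Sirt1 and Sirt2 were not. The UMIs of the 6 sirtuin genes together came to 215, 112, 158 and 170 CPM. For the mitochondrial deacetylase Sirt3 (ENSMUSG00000025486, chr7:140863666-140882309, minus strand) the counts were 1479, 886, 1325 and 2035 UMIs, or 57.2 (54.4 to 60.2), 22.3 (20.9 to 23.9), 32.0 (30.3 to 33.8) and 30.5 (29.2 to 31.8) CPM. Young sham stood above and young I/R below both aged libraries, which overlapped in their intervals. Its log2 CPM ratio was -1.36 (-1.48 to -1.24) for I/R in young mice, -0.07 (-0.17 to 0.03) for I/R in aged mice and -0.84 (-0.95 to -0.73) for aged over young sham. Psmd13 and Ric8a overlap the ends of Sirt3 on the other strand. Psmd13 had its highest level in young I/R, at 48.1, 62.5, 59.4 and 50.5 CPM, where Sirt3 had its lowest.

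Sirt5, the mitochondrial enzyme that removes succinyl and malonyl groups (ENSMUSG00000054021, chr13:43365496-43395203, plus strand), had 959, 735, 1329 and 1806 UMIs. The levels were 37.1 (34.8 to 39.5), 18.5 (17.2 to 19.9), 32.1 (30.4 to 33.9) and 27.0 (25.8 to 28.3) CPM, with no overlap of intervals. By total UMIs its interval lay below 0 for I/R at both ages, from -1.14 to -0.86 on the log2 scale in young mice and from -0.35 to -0.15 in aged mice. By gene-wise scaling the ratios of Sirt5 were -0.52 and -0.35, and those of Sirt3 were also below 0 at both ages, at -0.87 (-0.99 to -0.75) and -0.17 (-0.27 to -0.07).

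Of the nuclear sirtuins, Sirt7, which acts at ribosomal RNA genes (ENSMUSG00000025138, chr11:120618372-120625240, minus strand), had 1091, 659, 1121 and 2290 UMIs, or 42.2 (39.8 to 44.8), 16.6 (15.4 to 17.9), 27.1 (25.5 to 28.7) and 34.3 (32.9 to 35.7) CPM. The order of libraries was that of Malat1 and Nnt. Its log2 CPM ratio for I/R was -1.35 (-1.49 to -1.20) in young and 0.34 (0.24 to 0.44) in aged mice. The end of Mafg overlaps Sirt7 on the same strand by 124 bases, so some reads could be assigned to neither or to the other. Mafg had 95.8, 59.0, 57.2 and 63.2 CPM, with log2 ratios of -0.70 and 0.14 for the same comparisons. Sirt6, a chromatin deacetylase (ENSMUSG00000034748, chr10:81621785-81627797, minus strand), was the most thinly counted gene, with 121, 94, 157 and 320 UMIs, or 4.68 (3.89 to 5.60), 2.37 (1.91 to 2.90), 3.80 (3.23 to 4.44) and 4.79 (4.28 to 5.35) CPM. Young I/R was its lowest library and the other intervals overlapped. Its log2 ratio for I/R was -0.98 (-1.39 to -0.58) in young and 0.34 (0.06 to 0.62) in aged mice.

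Sirt1, the most studied nuclear deacetylase of the family (ENSMUSG00000020063, chr10:63319005-63381704, minus strand), had 455, 554, 617 and 1227 UMIs, or 17.6 (16.0 to 19.3), 14.0 (12.8 to 15.2), 14.9 (13.8 to 16.1) and 18.4 (17.4 to 19.4) CPM. Neighbours in the order of level, from young I/R over aged sham and young sham to aged I/R, had overlapping intervals. Its log2 ratio for I/R in young mice was -0.33 (-0.52 to -0.15) by total UMIs and 0.15 (-0.03 to 0.33) by gene-wise scaling. Sirt2, a mainly cytosolic deacetylase (ENSMUSG00000015149, chr7:28766735-28788661, plus strand), had 1450, 1514, 2000 and 3675 UMIs, or 56.1 (53.3 to 59.1), 38.2 (36.3 to 40.1), 48.4 (46.3 to 50.5) and 55.0 (53.3 to 56.9) CPM. Its log2 ratio of -0.56 (-0.66 to -0.45) for I/R in young mice was close to the median of all genes and came to -0.07 by gene-wise scaling. Against their own library, Sirt3 UMIs per Sirt1 UMI were 3.25 (2.92 to 3.62), 1.60 (1.44 to 1.78), 2.15 (1.95 to 2.37) and 1.66 (1.54 to 1.78). The mitochondrial gene was thus lower relative to the nuclear one in each of the other libraries than in young sham.

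**Figure D2:**
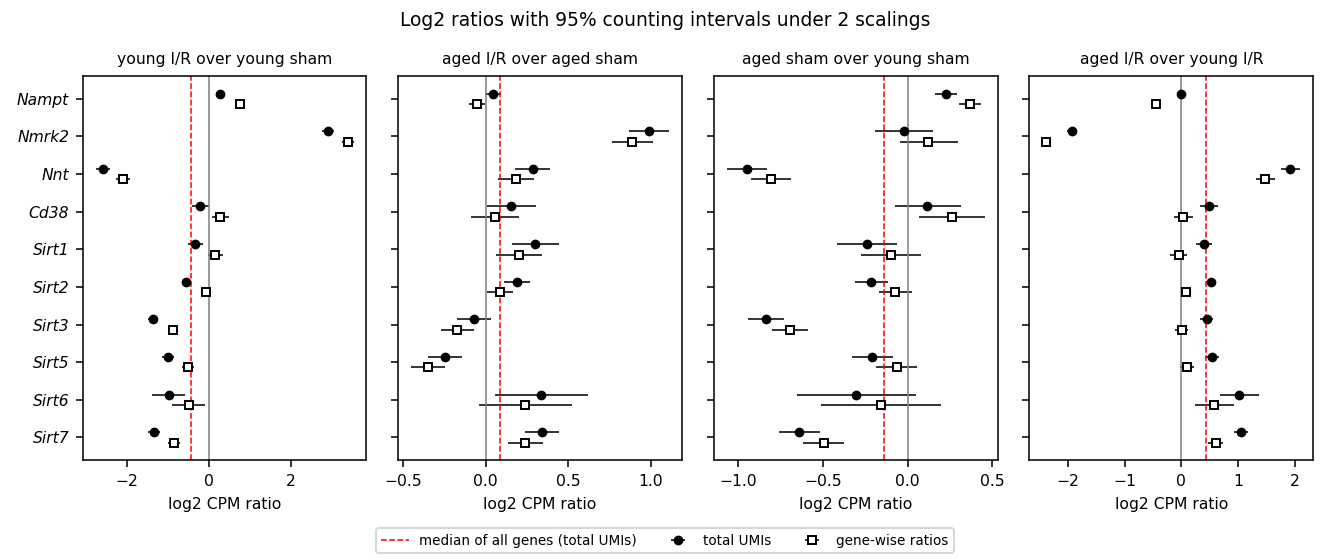
Log2 CPM ratio of each of the 10 genes in the 4 comparisons (horizontal axis, with its own range in each panel), with lines for 95% counting intervals. Filled circles are scaled by total UMIs and open squares by gene-wise ratios, and the dashed line is the median of all genes by total UMIs. Nmrk2 lies at 2.91 and Nnt at -2.59 in the first panel, while Sirt1 (-0.33 and 0.15) and Cd38 (-0.21 and 0.28) change sign there with the scaling.

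Counted together against a limit of 1.5-fold, 1 of the 10 genes was higher (Nmrk2) and 5 were lower (Nnt, Sirt3, Sirt5, Sirt6 and Sirt7) after I/R in young mice. Among all 12465 genes with at least 100 UMIs, 5.35% were higher and 41.9% lower past that limit, so the share of lower genes among the 10 is near the background. By gene-wise scaling 2 of the 10 were higher (Nmrk2 and Nampt) and 3 lower (Nnt, Sirt3 and Sirt7), against 19.5% and 19.3% of all genes. Of the 10 genes, 1 was higher (Nmrk2) and 0 lower in aged I/R over aged sham, where 14.4% and 7.43% of 13722 genes were (10.7% and 10.8% by gene-wise scaling). Between sham libraries 0 were higher and 3 lower in aged mice (Nnt, Sirt3 and Sirt7), against 6.12% and 16.9% of 12901 genes, and by gene-wise scaling Nnt and Sirt3 were past the limit, against 10.1% higher and 10.6% lower genes. Between I/R libraries 3 were higher (Nnt, Sirt6 and Sirt7) and 1 lower (Nmrk2) in aged mice, against 39.3% and 3.29% of 13434 genes (15.8% and 14.7% by gene-wise scaling, by which 2 of the 10 were higher, Nnt and Sirt7, and 1 lower, Nmrk2). At a limit of 2-fold, 0 of the 10 genes were past it in aged I/R over aged sham, where 3.58% of genes were higher and 1.5% lower, and 0 in aged over young sham, where 1.57% were higher and 4.49% lower. These comparisons share libraries and are not independent of each other.

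Setting the responses of both ages side by side, the difference of log2 ratios (aged minus young) lay furthest from 0 for Nnt and Nmrk2. It was 2.87 (2.67 to 3.08) for Nnt and -1.92 (-2.10 to -1.74) for Nmrk2, and it kept its sign by gene-wise scaling at 2.29 and -2.51. The difference was 1.69 (1.51 to 1.86) for Sirt7, 1.29 (1.13 to 1.44) for Sirt3 and 1.32 (0.84 to 1.80) for Sirt6, and 1.10, 0.70 and 0.73 by gene-wise scaling. Over barcodes with at least 200 genes the difference for Nmrk2 was -1.32 (-1.53 to -1.11). The counting interval left out 0 for all 10 genes by total UMIs and for 7 of 10 by gene-wise scaling, where it did so for 81.1% and 77.2% of 12448 genes with at least 100 UMIs in both I/R comparisons and at least 1 UMI in every library. The exceptions were Sirt1 at 0.05 (-0.18 to 0.28), Sirt5 at 0.17 (-0.00 to 0.34) and Cd38 at -0.22 (-0.47 to 0.03). Counting intervals do not hold the spread between mice, so none of these differences was tested between animals.

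The wider list of 71 NAD genes, grouped by role, had 59 genes with at least 100 UMIs in the young comparison. Of these, 4 were higher and 26 lower in young I/R, where 5.35% and 41.9% of all genes were. Their median log2 CPM ratio of -0.44 equals the median of all genes at -0.44. Active ADP-ribosyltransferases use NAD to modify proteins. Among the 16 genes listed under that name, 1 was higher and 10 lower, with a median of -0.82. Their outliers were Parp8 at -1.66 (-1.83 to -1.50) and Art3 at 0.71 (0.64 to 0.78), an ectoenzyme family member whose level went from 86.7 to 142 CPM. The mitochondrial sirtuin Sirt4, which is not among the 10 genes, stood at -1.66 (-2.02 to -1.31), with 8.05 and 2.55 CPM, so 5 of the 7 sirtuins were lower past 1.5-fold, where 41.9% of all genes were, and 3 of the 7 by gene-wise scaling. Bst1, a paralog of Cd38 that also cleaves NAD, stood at 1.86 (1.12 to 2.67) on 18 and 100 UMIs. Of the 11 genes of NADH shuttles and lactate or malate dehydrogenases, 1 was higher and 0 were lower, and their median of 0.24 lay above that of all genes. By gene-wise scaling 15 of the 59 genes were higher and 17 lower, with 7 of the 11 shuttle genes among the higher ones, where 19.5% of all genes were higher and 19.3% lower.

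In aged I/R over aged sham, 60 of the 71 genes had enough UMIs. Of these, 8 were higher and 2 lower, where 14.4% and 7.43% of all genes were. The median was 0.16 beside 0.09 for all genes. The higher ones with the greatest ratios were Bst1 at 1.07 on 63 and 213 UMIs, Nt5e at 1.02 (0.87 to 1.17) and Nmrk2 at 0.99 (0.87 to 1.11). Nt5e, the ectonucleotidase CD73, had 21.6, 17.6, 11.8 and 24.0 CPM, so its lowest level was in aged sham. Parp10 at -0.84 (-0.98 to -0.71) and Enpp1 at -0.60 (-0.82 to -0.38), an ectoenzyme that cleaves nucleotides, were the lower ones. Nmrk2, Bst1 and Art3 were past the limit after I/R at both ages, Art3 with 0.66 (0.60 to 0.72) in aged mice. The count fell from 10 to 5 genes past 1.5-fold by gene-wise scaling, by which 10.7% of all genes were higher and 10.8% lower.

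Between sham libraries 58 of the 71 genes were counted. Of these, 0 were higher and 9 lower in aged mice, where 6.12% and 16.9% of all genes were. The median was -0.22 beside -0.14 for all genes. The lowest ratios were those of Sirt4 at -1.12 (-1.43 to -0.81), Aox1 at -1.10 (-1.22 to -0.98), an oxidase that clears methylated nicotinamide, and Nmnat1 at -1.02 (-1.17 to -0.88), the nuclear enzyme that completes NAD from its mononucleotide. Nmnat1 had 34.5, 14.0, 17.0 and 24.4 CPM, the same order of libraries as Malat1 and Nnt. Between I/R libraries 25 of 60 genes were higher and 1 lower in aged mice, where 39.3% and 3.29% of all genes were. Their median was 0.49 beside 0.43 for all genes. Besides Nnt, the greatest ratios were those of Kmo, an enzyme of tryptophan breakdown, at 1.41 (0.68 to 2.21) on 19 and 85 UMIs, and Parp11 at 1.39 (1.11 to 1.67). Nmrk2 was the lower one at -1.94 (-2.01 to -1.87).

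**Figure D3:**
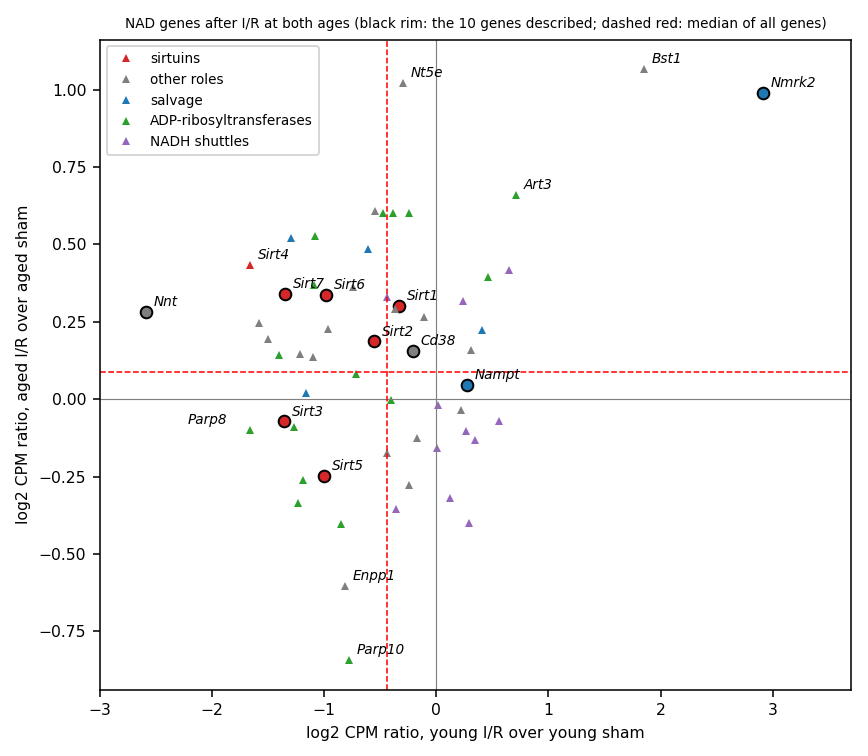
Log2 CPM ratio for I/R in young mice (horizontal axis) against that in aged mice (vertical axis) for 59 NAD genes with at least 100 UMIs over the libraries compared. Circles with a black rim are the 10 genes described, triangles are other genes by role, and dashed lines are medians of all genes, at -0.44 and 0.09. Nmrk2 (2.91 and 0.99) and Bst1 (1.86 and 1.07) lie at the upper right, and Nnt (-2.59 and 0.28) lies at the far left.

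The levels were also summed within clusters of the 241086 barcodes with at least 200 genes, clustered without the 10 genes. Clusters are called by number and leading genes, since the sum of the 18 cardiomyocyte markers set no cluster far apart. This sum lay between 99519 and 118087 CPM in all 11 clusters of at least 10000 barcodes, and was highest in cluster 1. Other lists did mark clusters, by markers at least 1.5-fold above all other clustered barcodes. Cluster 8 had 15 of 18 fibroblast, cluster 4 had 9 of 21 macrophage and cluster 9 had 4 of 19 endothelial markers. Cluster 10 had 6 of 10 mural, cluster 11 had 4 of 4 atrial and cluster 7 had 5 of 5 erythroid markers. By the same measure cluster 1 had 2 of 18 cardiomyocyte markers and the other 10 clusters had 0. In 10 of these 11 clusters the 10 genes had similar levels over all libraries together. The highest cluster was between 1.15 times the lowest for Nampt and 1.68 times for Sirt7. Within young sham alone the same 10 clusters spanned 28.9 to 68.5 CPM for Nnt. With genes scaled over all libraries together, the fold was 4.67 for Nmrk2 and 3.85 for Nnt, apart from the cluster with most Mhrt. In that clustering up to 86.7% of the barcodes of a cluster came from 1 library, against at most 47.6% in the 11 clusters. These folds therefore also hold differences between libraries. Cluster 1, led by the cardiac long noncoding RNA Mhrt and by Dmd, held 30243 barcodes and 8.21% Malat1, against 2.64% in the cluster with the least. Nnt had 53.7 CPM there (50.7 to 56.9) and between 18.9 and 26.0 CPM in the other 10 clusters. Sirt3 had 45.7 CPM (42.9 to 48.6) there, against 26.8 to 34.5 CPM. These are levels over all libraries together, and within each of the 4 libraries Nnt and Sirt3 again had their highest level in cluster 1, while none of the other 8 genes did so in every library. For Sirt3 in both I/R libraries the interval of cluster 1 held the level of the next cluster. The levels were 30.0 CPM (24.1 to 37.0) against 26.3 in young I/R and 35.5 CPM (32.1 to 39.2) against 33.9 in aged I/R. These values describe the clusters and were not tested.

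Within all 11 clusters Nmrk2 was higher in I/R than in sham at both ages, with log2 CPM ratios of 1.35 to 3.37 in young and 0.60 to 1.51 in aged mice. Cluster 1 gave the lowest young ratio, where Nmrk2 had 50.2 CPM in young sham, against 12.3 to 31.0 CPM in the other clusters of that library. Aged sham over young sham stood at -1.51 (-1.92 to -1.12) in that cluster for Nmrk2. In young mice Nnt was lower after I/R in all 11 clusters, at -4.40 to -2.41. In aged mice Nnt was higher in I/R in 9 clusters and lower in 2, with -0.35 (-0.57 to -0.13) in cluster 1. Under a clustering with genes scaled over all libraries together this count turned to 3 clusters higher and 7 lower. Sirt2, Sirt3, Sirt5 and Sirt7 were lower in young I/R in 11 of 11 clusters, at -0.95 to -0.40, -1.87 to -1.01, -1.31 to -0.56 and -1.90 to -1.06, beside a median of -0.44 over all genes of the whole libraries. Under the clustering with genes scaled over all libraries together, Sirt3 and Sirt5 were each lower in 8 of 10 clusters and higher in 2, and Sirt2 and Sirt7 were lower in 10. Clusters of 1 library are not replicates of a condition, and Malat1 took a different share in each library.

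**Figure D4:**
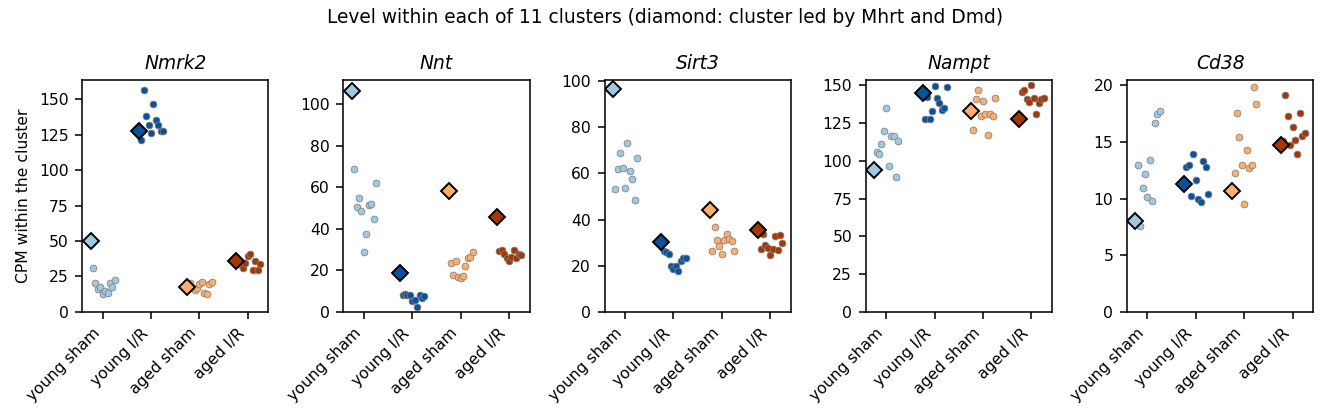
Level of Nmrk2, Nnt, Sirt3, Nampt and Cd38 in CPM (vertical axis, from 0) within each of 11 clusters, by library, with 1 point per cluster and a diamond for cluster 1. The diamond lies above the other points for Nnt in all 4 libraries, at 106 CPM in young sham, and Nmrk2 lies between 121 and 156 CPM in every cluster of young I/R.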

How the data were processed

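The authors prepared left ventricle on the 10× Chromium system, and the submitters' processing notes name Cell Ranger 6.0.2 and mm10. The deposited values are whole UMI counts for every gene in every barcode, which the authors did not scale. The use of strand and of intronic reads in counting is not stated. The authors' cell types were not used here. For each library the counts of all barcodes were added up and divided by the library's total (CPM), with exact 95% Poisson intervals, and ratios had exact conditional binomial intervals. Totals per library ranged from 25836175 to 66767829 UMIs. With 1 library per condition no test was made.

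The 10 genes and the lists were chosen with earlier results of these data known. Named genes are the 10, up to 3 NAD genes at each end of a comparison past 1.5-fold with at least 100 UMIs, the 3 nearest patterns (of which 1 each for Nmrk2 and Nnt is not reported here), and genes that overlap the 10. Nmrk1, Nadk2 and Art3 in aged mice were named after their values were seen. Barcodes with at least 200 genes were clustered by 2000 variable genes, 10 principal components and Leiden resolution 1, and clusters under 10000 barcodes were left out. Doublets were not sought. Locations are those of GENCODE M21, where 32235 of 32285 identifiers matched. On simulated counts 95.5% of intervals held the true ratio. Those counts were drawn from the Poisson law that the intervals assume, so coverage near 95% was fixed in advance. They hold no spread between mice or libraries. Clustering used scanpy 1.11.5, scikit-learn 1.9.0 and igraph 0.11.9, sums used pandas 2.3.3 and numpy 2.4.6, intervals scipy 1.17.1 and figures matplotlib 3.10.9 under Python 3.11.15.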

Additional observations from a re-analysis of the deposited data

Results flagged for a closer look

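For 6 of the 10 genes the log2 CPM ratio of I/R over sham had opposite signs in young and aged mice, with 1 library behind each level, and the difference was not tested between animals. The ratios in young and aged mice were -2.59 and 0.28 for Nnt, -1.35 and 0.34 for Sirt7, -0.98 and 0.34 for Sirt6, -0.56 and 0.19 for Sirt2, -0.33 and 0.30 for Sirt1, and -0.21 and 0.15 for Cd38. By gene-wise scaling Sirt1 (0.15 and 0.20) and Cd38 (0.28 and 0.05) were positive at both ages, and Nnt, Sirt7, Sirt6 and Sirt2 kept opposite signs. The gene-wise intervals of Sirt2 in young mice (-0.175 to 0.035) and of Sirt6 in aged mice (-0.04 to 0.52) held 0, however. Nampt, positive at both ages by total UMIs, took opposite signs by gene-wise scaling, at 0.76 (0.70 to 0.83) and -0.06 (-0.10 to -0.01). Among 12448 genes with at least 100 UMIs in both comparisons and at least 1 UMI in every library, 58.8% had opposite signs by total UMIs and 56.8% by gene-wise scaling, so the count of 6 is near that of all genes. Malat1 had opposite signs as well, at -1.72 and 0.59, and its part in these ratios was not tested.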

How the results depend on the processing

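Gene-wise scaling turned the log2 CPM ratio of Sirt1 to 0.15 and that of Cd38 to 0.28 for young I/R over young sham, and that of Sirt1 to -0.047 for aged over young I/R, by its construction, since it adds 1 constant to all genes of a comparison. Cd38 in young mice came to 0.16 (-0.15 to 0.47) over barcodes with at least 200 genes and to 0.14 (-0.17 to 0.47) over barcodes with 300 to 600 UMIs. Both of these intervals held 0, and the cause was not tested. At a limit of 2-fold, 0 of the 10 genes were past it in aged I/R over aged sham and 0 in aged over young sham, against 1 and 3 at 1.5-fold. By gene-wise scaling 5 genes of the wider list were past 1.5-fold in aged I/R over aged sham, against 10 by total UMIs. Of all genes, 10.7% were higher and 10.8% lower past that limit by gene-wise scaling, against 14.4% and 7.43% by total UMIs. The number of genes with their highest level in cluster 1 over all libraries together was 5, and 4 or 7 in the cluster with most Mhrt under other clusterings. Of the 5, Sirt1, Sirt5 and Sirt6 had intervals that held the level of the next cluster. The cluster behind the count of 7 drew 83.9% of its barcodes from young sham. Nnt and Sirt3 ranked highest within each of the 4 libraries under every clustering, in part within counting error. With genes scaled over all libraries together, these ranks rested in young I/R on 12 UMIs of Nnt and 16 of Sirt3. Both intervals held the level of the next cluster. Of the ratios of single genes under the alternatives, 90 stayed within counting error, 65 moved past it and 5 turned from an interval without 0, while Nampt in aged mice or between I/R libraries, near 0, also crossed it under some. Nmrk2 for aged over young sham stood at -0.02 and came to 0.12 by gene-wise scaling and, past 1.5-fold, to -0.63 over barcodes with at least 200 genes. The ratio of Nmrk2 in young mice ranged from 2.32 to 3.40 and that of Nnt from -2.96 to -2.11. No paired analysis was possible because each condition has 1 library, and no library could be left out. The 94 UMIs of Sirt6 in young I/R limit its precision.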

Other observations

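A cluster of 1613 barcodes, 89.8% of them from aged I/R, was led by Cers5, a ceramide synthase, and by Sirt7, which had been left out of the clustering. It was chosen for mention after its values were seen, and it lay under the limit of 10000 barcodes.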
